A study of Homo sapiens with 9 samples.

Results

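Protein kinase C (PKC) is a family of serine/threonine kinases, and the mRNA of 8 of its genes was followed in 22Rv1 cells, an established human prostate carcinoma line, after knockdown of the chromatin remodeller gene CHD9. The 8 genes were taken by symbol from a table of 67071 gene identifiers: PRKCA and PRKCB of the classical class, PRKCD, PRKCE, PRKCH and PRKCQ of the calcium-independent class, and PRKCI and PRKCZ of the atypical class. The family had been selected on the measured log2 fold change of PRKCA on the mean of both hairpins. The differences of the 8 genes between groups are therefore given as a description, with standard errors (SE) and without a test.

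RNA was sequenced in 9 libraries. Hairpin 1 against CHD9 (shCHD9_1) was in 3 of them, hairpin 2 against CHD9 (shCHD9_2) in 3, and a hairpin against GFP (shGFP) in the 3 control libraries, whose genotype is labelled WT. All were the same line, grown in serum-containing RPMI 1640, and carried a hairpin, and the sources used here state neither how the hairpins were delivered nor when cells were harvested. The labels do not say whether the 3 libraries of a group are separate cultures, so standard errors and p-values cover the spread among 3 libraries that could be technical repeats.

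Classical PKCs are switched on by calcium and diacylglycerol together, those of the calcium-independent class by diacylglycerol without calcium, and atypical PKCs by neither, relying instead on protein partners such as PAR6. Diacylglycerol is made at membranes by phospholipase C and removed by diacylglycerol kinases, and phorbol esters mimic it. In prostate cancer cell lines, PKC-delta, the PRKCD product, is known for its part in phorbol ester-induced death, and PKC-epsilon, the PRKCE product, for growth and survival.

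The promoter sequences below are from RefSeq (GRCh38.p14) and cover the 250 bases before the annotated start, written 5′ to 3′ along the gene's own strand. They are shown for the isoform furthest from control, PRKCA, and for the isoform without a read, PRKCQ. Capitals mark GGGCGG, the GC box, and TATAAA, each searched on both strands and without overlap between them in these windows. PRKCA lies at chr17:66302363-66302612, plus strand, and PRKCQ at chr10:6580647-6580896, minus strand.
PRKCA: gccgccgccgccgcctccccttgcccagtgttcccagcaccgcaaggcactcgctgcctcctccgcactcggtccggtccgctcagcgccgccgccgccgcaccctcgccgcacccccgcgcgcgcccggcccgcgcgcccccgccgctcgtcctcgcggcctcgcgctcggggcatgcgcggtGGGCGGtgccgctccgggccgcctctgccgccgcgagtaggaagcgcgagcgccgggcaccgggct
PRKCQ: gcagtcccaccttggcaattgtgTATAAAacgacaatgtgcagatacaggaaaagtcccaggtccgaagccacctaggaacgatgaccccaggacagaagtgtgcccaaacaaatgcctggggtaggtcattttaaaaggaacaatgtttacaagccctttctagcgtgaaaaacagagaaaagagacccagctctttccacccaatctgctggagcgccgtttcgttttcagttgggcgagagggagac

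The PRKCA window held 47 CpG dinucleotides and 82.0% G and C, and its single GC box began 66 bases before the start. The PRKCQ window held 8 CpG and 49.2% G and C, with TATAAA beginning 227 bases before the start and no GC box. Over 35116 RefSeq promoter windows of the same length, the median was 11 CpG and 58.0% G and C, 42.6% held GGGCGG and 10.7% held TATAAA. Of the other isoforms with a single annotated start, PRKCB, PRKCE, PRKCH and PRKCI each held at least 1 GC box, and none held TATAAA. The PRKCB window held 30 CpG and 77.2% G and C. These matches describe the letters of the windows only.

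Library totals were 18911142 to 31968602 counts, and 16855 genes passed the filter on low counts and were tested. CHD9 itself was 15.4 ± 1.07 CPM (counts scaled to the library total) with hairpin 1 and 18.8 ± 0.465 CPM with hairpin 2, against 22.2 ± 1.42 CPM in shGFP (SD, n = 3 each). It fell by 0.52 on the log2 scale with hairpin 1 (SE 0.07, adjusted p = 7.2e-08) and by 0.24 with hairpin 2 (SE 0.07, adjusted p = 0.0060, both by the quasi-likelihood test of edgeR), so the knockdown was partial at the mRNA level. With shGFP replicate 3 left out, the hairpin 2 difference of -0.20 did not pass (edgeR adjusted p = 0.054, where the other alternatives gave 0.0028 to 0.027). The line's label was checked with 8 markers of prostate luminal cells, all of which passed the filter. Their summed level was 2143 to 2169 CPM with hairpin 1, 2020 to 2045 CPM with hairpin 2 and 1861 to 1896 CPM in shGFP. None of 5 T cell markers was tested, CD3D, CD3E and CD3G were at 0, and the 5 summed to at most 0.123 CPM. The 4 endothelial markers summed to at most 0.268 CPM, with CDH5 and KDR at 0, and the 4 macrophage markers to at most 0.756 CPM, with TYROBP at 0. The 4 fibroblast markers, 2 of them tested, summed to 7.14 to 7.76 CPM with hairpin 1, 6.815 to 7.83 CPM with hairpin 2 and 5.95 to 6.575 CPM in shGFP, and the part of the luminal and fibroblast differences in the results below was not tested.

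Among the PKC genes, PRKCA stood far above control with both hairpins, and PRKCD lay slightly above it in every knockdown library. PRKCE, PRKCH and PRKCZ overlapped control with each hairpin, and PRKCI lay just below it with hairpin 1 only. PRKCB and PRKCQ gave no usable signal. Of the 8 genes, 6 passed the filter on low counts. At an adjusted p under 0.05 in the fit over all genes, 2 of the 6 were higher and none lower on the mean of both hairpins, where 45.5% of all tested genes were called in either direction and 22.3% higher. Nothing is read from that count, since the family was chosen with results of these data known. In these bulk libraries, a change in the number of cells that express a gene and a change in RNA per cell cannot be told apart.

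PRKCA (ENSG00000154229.12, chromosome 17, 66302636 to 66810743, plus strand, GRCh38 with GENCODE 29) encodes PKC-alpha, a widely expressed classical isoform. With hairpin 1 it had 33.4, 35.4 and 35.4 CPM, from 673, 796 and 949 counts. With hairpin 2 it had 30.7, 28.1 and 27.8 CPM, from 774, 912 and 590 counts. The shGFP libraries had 11.05, 11.39 and 10.75 CPM, from 210, 258 and 281 counts. All 6 knockdown libraries were above all 3 shGFP libraries, and the hairpin 1 libraries were all above the hairpin 2 libraries. The libraries of the 2 sides did not overlap for 2 of the 6 tested isoforms in this comparison, and for 31.7% of all tested genes. The mean level was 3.14-fold that of shGFP with hairpin 1 (log2 fold change 1.65, SE 0.07) and 2.61-fold with hairpin 2 (log2 fold change 1.39, SE 0.07). Hairpin 1 was above hairpin 2 by 0.27 on the log2 scale (SE 0.06). On the mean of both hairpins (log2 fold change 1.52, SE 0.06), 0.362% of the tested genes had a fold change as high or higher, PRKCA included. That share describes a rank and is no test, since the family was chosen with results of these data known. Leaving out any single library gave a log2 fold change of 1.496 to 1.542 on the mean of both hairpins.

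The other classical gene of the list, PRKCB (ENSG00000166501.14, chromosome 16), encodes PKC-beta, which is best known from B cells. It had 1 count in shCHD9_2 replicate 2, 1 in shGFP replicate 2 and 0 in the other 7 libraries. It did not pass the filter, so PRKCA was the one classical gene among the 8 to be tested.

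**Figure D1:**
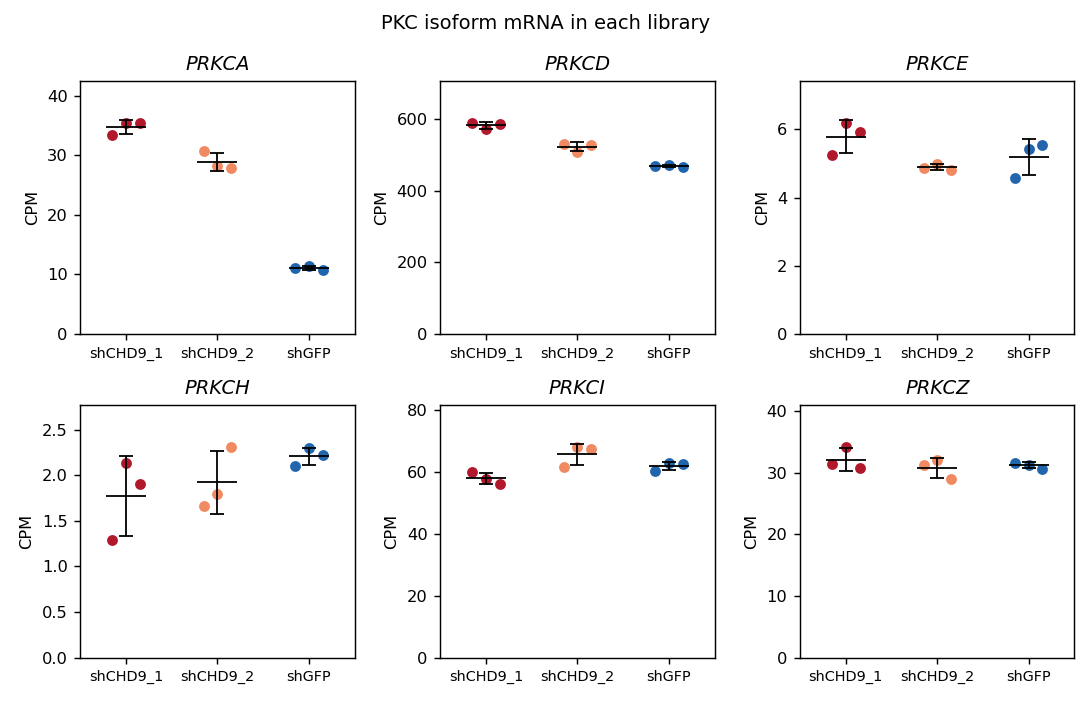
Level of each of the 6 tested PKC isoforms in CPM (y axis, from 0) in the 3 libraries of each group (points), with the group mean and SD (horizontal bar and whiskers). PRKCA lay between 27.8 and 35.4 CPM in the knockdown libraries and between 10.75 and 11.39 CPM in shGFP, while PRKCZ overlapped between all 3 groups.

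Of the calcium-independent class, PRKCD (ENSG00000163932.15, chromosome 3, 53156009 to 53192717, plus strand) was the most abundant PKC gene. It had 589, 573 and 588 CPM with hairpin 1. It had 532, 509 and 529 CPM with hairpin 2. The shGFP libraries had 469, 473 and 466 CPM. The 3 groups did not overlap, with hairpin 1 highest, hairpin 2 between and shGFP lowest. The difference was small beside that of PRKCA: 1.24-fold with hairpin 1 (log2 fold change 0.31, SE 0.02) and 1.115-fold with hairpin 2 (log2 fold change 0.16, SE 0.02). Hairpin 1 exceeded hairpin 2 by 0.16 on the log2 scale (SE 0.02). The size of either fold against shGFP can be set beside the median absolute log2 fold change of all tested genes, 0.21 with hairpin 1 and 0.16 with hairpin 2.

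PRKCE (ENSG00000171132.14, chromosome 2, 45651345 to 46187990) encodes PKC-epsilon and was a low-abundance isoform. It had 5.25, 6.18 and 5.93 CPM with hairpin 1, 4.88, 5.00 and 4.81 CPM with hairpin 2 and 4.58, 5.43 and 5.545 CPM in shGFP. Each hairpin's libraries overlapped those of shGFP, while the hairpin 1 libraries were all above the hairpin 2 libraries. The log2 fold change was 0.15 with hairpin 1 (SE 0.13) and -0.09 with hairpin 2 (SE 0.13).

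PRKCH (ENSG00000027075.15, chromosome 14, 61187559 to 61550976) encodes PKC-eta, an isoform of squamous epithelia, and was the lowest of the tested isoforms, with 26 to 58 counts per library. It had 1.29, 2.13 and 1.90 CPM with hairpin 1, 1.67, 1.79 and 2.31 CPM with hairpin 2 and 2.105, 2.295 and 2.218 CPM in shGFP. The groups overlapped, and the SE of 0.22 on the log2 fold change for either hairpin leaves room for sizeable differences (95% interval -0.74 to 0.13 with hairpin 1). The value is also uncertain because PRKCH shares annotated exonic positions with TMEM30B on the opposite strand. TMEM30B had 594 to 1063 counts per library, and no source used here states whether reads were counted by strand. TMEM30B was itself 37.9 ± 3.02 CPM with hairpin 1, 34.1 ± 1.48 CPM with hairpin 2 and 32.02 ± 1.15 CPM in shGFP (SD, n = 3 each).

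PRKCQ (ENSG00000065675.15, chromosome 10, 6427143 to 6580301, minus strand) encodes PKC-theta, the isoform of T cell activation. No read was counted for it in any of the 9 libraries, which allows, at 3 counts per library, 0.0925 to 0.158 CPM depending on the library. This limit covers counting error only. The absence of reads goes with the T cell markers, of which CD3D, CD3E and CD3G were also at 0.

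In shGFP the atypical isoforms were the next most abundant in CPM after PRKCD. With hairpin 1, PRKCA (mean 34.7 CPM) was above PRKCZ (mean 32.1 CPM). Neither atypical isoform differed from shGFP in the same direction with both hairpins. PRKCI (ENSG00000163558.13, chromosome 3, 170222365 to 170305981) encodes PKC-iota, which binds the polarity protein PAR6. It had 60.0, 57.8 and 56.2 CPM with hairpin 1, 61.8, 68.2 and 67.35 CPM with hairpin 2 and 60.4, 62.9 and 62.7 CPM in shGFP. The hairpin 1 libraries were all just below the shGFP libraries, whereas those of hairpin 2 overlapped them. The log2 fold change was -0.10 with hairpin 1 (SE 0.04) and 0.085 with hairpin 2 (SE 0.04), a distance of -0.185 between the hairpins (SE 0.04). Without overlap between libraries stood 3 of the 6 isoforms for hairpin 1 against shGFP, beside 53.9% of all tested genes, and 2 for hairpin 2 against shGFP, beside 44.1%.

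PRKCZ (ENSG00000067606.17, chromosome 1, 2050470 to 2185395) encodes PKC-zeta, the other PAR6-binding isoform. It had 31.4, 34.2 and 30.7 CPM with hairpin 1, 31.3, 32.1 and 28.9 CPM with hairpin 2 and 31.6, 31.2 and 30.7 CPM in shGFP. The 3 groups overlapped, and the log2 fold change was 0.04 with hairpin 1 (95% interval -0.07 to 0.16) and -0.01 with hairpin 2 (95% interval -0.125 to 0.100). Exons of FAAP20 and of PRKCZ-AS1 overlap those of PRKCZ on the opposite strand. PRKCZ-AS1 had 30 to 61 counts per library and FAAP20 had 1062 to 1973, so part of the PRKCZ value is uncertain for the reason given for PRKCH. FAAP20 was itself 64.9 ± 3.75 CPM with hairpin 1, 61.1 ± 1.10 CPM with hairpin 2 and 56.7 ± 0.723 CPM in shGFP (SD, n = 3 each). The PRKCZ-AS1 libraries overlapped between the groups.

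For hairpin 1 alone, 2 of the 6 isoforms were called at an adjusted p under 0.05, both higher, beside 47.3% of all tested genes called and 23.9% called higher. For hairpin 2 alone also 2 were called, both higher, beside 35.7% and 17.2%. In both cases they were PRKCA and PRKCD, and nothing is read from these counts. Between the hairpins 3 were called, beside 29.2% of all tested genes, 15.6% higher and 13.6% lower. PRKCA and PRKCD were higher and PRKCI lower with hairpin 1. In that comparison 4 of the 6 did not overlap, beside 39.6% of all tested genes.

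**Figure D2:**
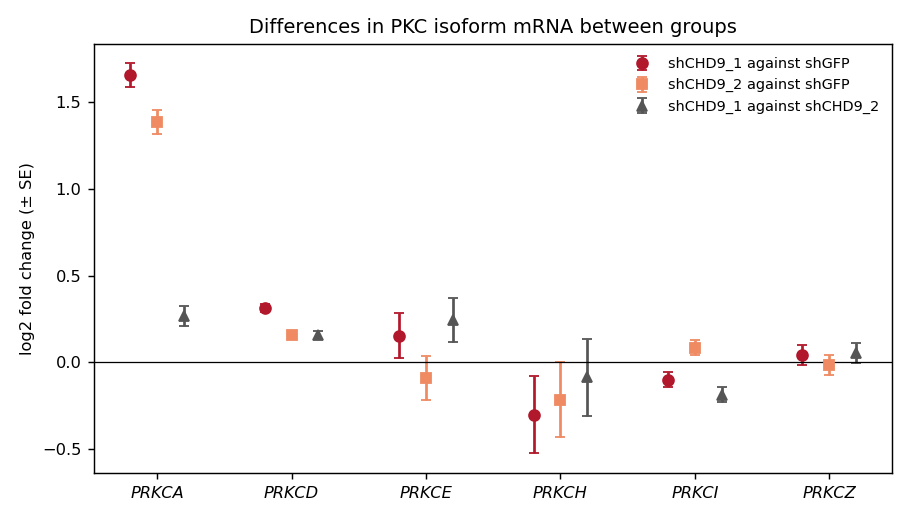
Log2 fold change (y axis) of the 6 tested PKC isoforms with its SE (whiskers) for hairpin 1 against shGFP, hairpin 2 against shGFP and hairpin 1 against hairpin 2. PRKCA stood at 1.65 and 1.39 against shGFP, and PRKCI lay at -0.10 with hairpin 1 and 0.085 with hairpin 2.

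To compare isoforms with each other, CPM were divided by the length of the union of annotated exons (GENCODE 29). The order in each group was PRKCD, PRKCI, PRKCZ, PRKCA, PRKCE and PRKCH, and no isoform's range over libraries overlapped that of its neighbour in the order. Per kilobase, PRKCD was 172 ± 2.74 CPM with hairpin 1, 154 ± 3.78 CPM with hairpin 2 and 138 ± 1.075 CPM in shGFP (SD, n = 3 each). PRKCI, next in order, was 9.93 ± 0.322 CPM per kilobase with hairpin 1, 11.3 ± 0.592 with hairpin 2 and 10.6 ± 0.236 in shGFP (SD, n = 3 each). PRKCD ranked above 98.4% of 16492 tested genes in shGFP on this scale, PRKCI above 73.5%, PRKCZ above 52.5%, PRKCA above 26.2%, PRKCE above 16.6% and PRKCH above 8.62%. PRKCA was thus a low-abundance gene in control cells.

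PRKCA reached 3.11 ± 0.105 CPM per kilobase with hairpin 1 and 2.59 ± 0.141 with hairpin 2, against 0.992 ± 0.0287 in shGFP (SD, n = 3 each), and in the knockdown groups was still below PRKCZ, at 4.205 ± 0.240 with hairpin 1 and 4.03 ± 0.216 with hairpin 2. As a share of the summed level of the 8 isoforms, PRKCA made up 1.64% with hairpin 1 and 1.499% with hairpin 2, against 0.641% in shGFP. PRKCD made up 90.5% with hairpin 1, 89.2% with hairpin 2 and 89.4% in shGFP. The summed level was 190 ± 2.44 CPM per kilobase with hairpin 1, 173 ± 3.32 with hairpin 2 and 155 ± 1.22 in shGFP (SD, n = 3 each), most of which was PRKCD in each group. These shares depend on the length used. With the longest annotated transcript in place of the exon union, PRKCZ made up 5.79% of the sum and PRKCI 4.91% with hairpin 1, and PRKCZ 6.85% and PRKCI 6.40% in shGFP, so their order turned round in these groups. With hairpin 2 their shares, 6.11% for PRKCI and 6.09% for PRKCZ, differed by less than the spread between libraries. PRKCD still made up 85.3% in shGFP.

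**Figure D3:**
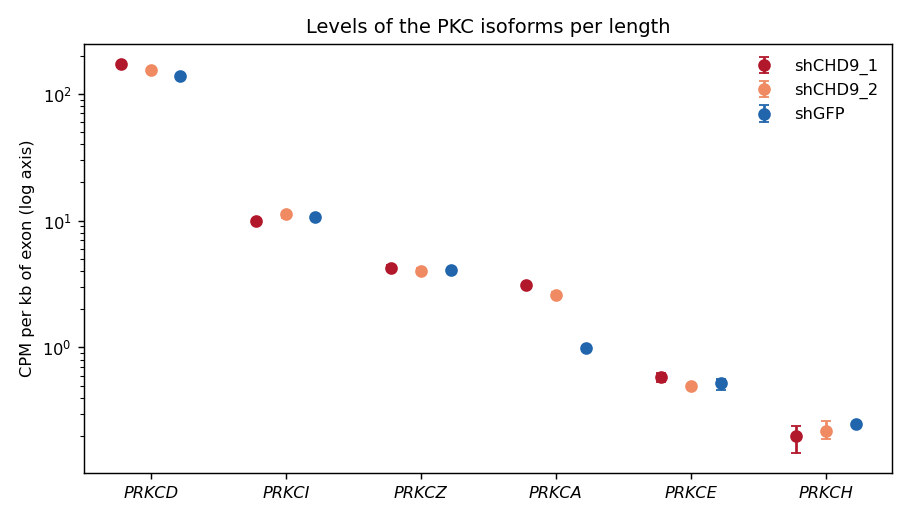
Level per kilobase of annotated exon (y axis, log scale) of the 6 tested PKC isoforms, ordered by their level in shGFP. Points are group means of 3 libraries and whiskers the lowest and highest library. PRKCD, at 138 CPM per kilobase in shGFP, lies far above PRKCI at 10.6, and PRKCA in the knockdown groups lies between PRKCZ and its own shGFP level.

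The genes whose level over the 9 libraries was most like that of PRKCA were found by Euclidean distance of log2 CPM centred on shGFP. The search covered 10412 protein-coding genes of at least 5 CPM on average, and clone, LINC and antisense names were passed over. The nearest genes were INHBB (distance 0.221), OAF (0.460), SHANK1 (0.585), SLC35F1 (0.607) and ATP2B3 (0.642). INHBB, an inhibin subunit gene on chromosome 2, was 20.1 ± 0.888 CPM with hairpin 1 and 15.9 ± 1.65 CPM with hairpin 2, against 6.47 ± 0.144 CPM in shGFP (SD, n = 3 each). ATP2B3, a plasma membrane calcium pump gene on the X chromosome, was 14.9 ± 1.37 CPM with hairpin 1 and 11.7 ± 0.223 CPM with hairpin 2, against 5.34 ± 0.445 CPM in shGFP. For PRKCH, the isoform with the lowest mean fold change (log2 fold change -0.26, SE 0.19), the nearest 5 genes were CD109, INTS2, ZNF823, SLC25A46 and TRIQK, at distances of 0.402 to 0.439, and the replicate SD of PRKCH itself was 0.253 on the log2 scale. PRKCH, at 1.775 to 2.206 CPM on group average, lay below the cut of 5 CPM set for the genes searched.

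The genes around PKC in its pathway, none of them among the 8, were taken from 9 lists of 79 genes, 63 of which were tested. On the mean of both hairpins 23 rose, 18 fell and 22 did not pass, so 65.1% were called, beside 45.5% of all tested genes. Their median log2 fold change was -0.04, beside 0.00 for all genes. With hairpin 1, 28 rose and 19 fell (74.6% called, beside 47.3% of all tested genes), and with hairpin 2, 17 rose and 15 fell (50.8%, beside 35.7%). The lists were chosen with earlier results of these data known, so nothing is read from these shares or from the counts of single lists below. The values below are for the mean of both hairpins unless a hairpin is named. On that mean, 22.3% of all tested genes were called higher and 23.2% lower, which stands beside each list count below. Each adjusted p is from the quasi-likelihood test of edgeR, adjusted by Benjamini-Hochberg over all genes.

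Phospholipase C genes, whose products make diacylglycerol, had 2 of 10 tested members higher, 2 lower and 6 not passed. PLCB1, a beta isoform of G protein signalling, was 12.6 ± 0.709 CPM with hairpin 1 and 15.72 ± 1.197 CPM with hairpin 2, against 24.0 ± 1.59 CPM in shGFP (SD, n = 3 each). It fell by 0.76 on the log2 scale (SE 0.06, adjusted p = 1.4e-13). PLCD3 rose by 0.52 (SE 0.05, adjusted p = 5.6e-12). PLCD4, at 2 to 23 counts per library, fell by 1.45 (SE 0.42, adjusted p = 0.0040), with a log2 fold change of -2.40 with hairpin 1 and of -0.49 with hairpin 2, where it did not pass (adjusted p = 0.40).

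Diacylglycerol kinase genes, whose products remove diacylglycerol, had 5 of 8 tested members higher, 2 lower and 1 not passed. DGKH rose by 0.51 (SE 0.08, adjusted p = 3.1e-07) and DGKE by 0.46 (SE 0.095, adjusted p = 7.6e-05). DGKG was a low-count gene that rose, with 47, 54 and 75 counts with hairpin 1 and 16, 14 and 17 counts with hairpin 2, against 6, 7 and 5 counts in shGFP (log2 fold change 2.19, SE 0.35, adjusted p = 1.1e-06). Its hairpin 2 value, 1.16 (adjusted p = 0.027), did not pass without shCHD9_2 replicate 1 (1.13, adjusted p = 0.056), shCHD9_2 replicate 3 (0.96, adjusted p = 0.11) or shGFP replicate 3 (0.94, adjusted p = 0.13). DGKA, the alpha isoform best known from T cells, fell by 0.58 (SE 0.07, adjusted p = 1.1e-08). DGKB, at 1 to 21 counts per library, fell by 1.32 (SE 0.39, adjusted p = 0.0051) but did not pass with hairpin 2 (-0.76, adjusted p = 0.17), and the call on the mean was lost without shGFP replicate 2 (adjusted p = 0.055).

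Kinases and phosphatases that set the phosphorylation of PKC rose in 1 of 7 cases and fell in 3, and 3 did not pass. PHLPP2, a phosphatase that acts on the hydrophobic motif of PKC and AKT, was 27.4 ± 1.07 CPM with hairpin 1 and 30.7 ± 0.771 CPM with hairpin 2, against 36.2 ± 1.74 CPM in shGFP (SD, n = 3 each), a fall of 0.32 on the log2 scale (adjusted p = 4.4e-07). MLST8, an mTOR complex subunit, rose by 0.10 (adjusted p = 0.0025). RICTOR, the subunit specific to mTORC2, fell by 0.18 (SE 0.06, adjusted p = 0.013), which was lost without shGFP replicate 2 (adjusted p = 0.080) and without shGFP replicate 3 (adjusted p = 0.16).

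Anchors and scaffolds of PKC had 3 of 5 tested members higher, 1 lower and 1 not passed. AKAP12, a PKC-binding scaffold also called gravin, fell by 0.56 (SE 0.06, adjusted p = 9.1e-11). RACK1, the receptor for activated C kinase and a ribosome component, rose by 0.16 (SE 0.02, adjusted p = 3.4e-09), with a log2 fold change of 0.27 with hairpin 1 and 0.04 with hairpin 2, where it did not pass (adjusted p = 0.13). AKAP5 rose by 0.45 (SE 0.125, adjusted p = 0.0025), but did not pass without shGFP replicate 1 (log2 fold change 0.30, adjusted p = 0.061).

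Partners of the atypical isoforms rose in 5 of 9 cases and fell in 1, and 3 did not pass. WWC1, which encodes the PKC-zeta partner KIBRA, rose by 0.26 (SE 0.03, adjusted p = 6.3e-10), and the PAR6 gene PARD6A by 0.38 (SE 0.05, adjusted p = 1.2e-08). LLGL1, a polarity protein phosphorylated by atypical PKC, fell by 0.23 (SE 0.03, adjusted p = 4.3e-07).

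All 7 tested genes of the PKC substrate list passed on the mean of both hairpins, 3 higher and 4 lower, beside 45.5% of all tested genes. With hairpin 1, 2 of the 7 did not pass. These were MARCKSL1 (log2 fold change 0.04 with hairpin 1 and -0.145 with hairpin 2) and ADD1 (0.01 with hairpin 1 and -0.15 with hairpin 2), which fell with hairpin 2. MARCKS, the abundant myristoylated substrate that binds actin and phosphoinositides, was 496 ± 6.32 CPM with hairpin 1 and 498 ± 9.26 CPM with hairpin 2, against 713 ± 1.78 CPM in shGFP (SD, n = 3 each). It fell by 0.52 (SE 0.02, adjusted p = 1.2e-25), and the difference between the hairpins was -0.004 on the log2 scale (SE 0.02). ADD3, gamma-adducin of the membrane skeleton, fell by 0.92 (SE 0.06, adjusted p = 1.0e-16). PPP1R14A rose by 0.63 (SE 0.13, adjusted p = 8.4e-05) and PPP1R14B by 0.17 (SE 0.02, adjusted p = 7.6e-08), and the products of both inhibit protein phosphatase 1 once PKC has phosphorylated them.

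**Figure D4:**
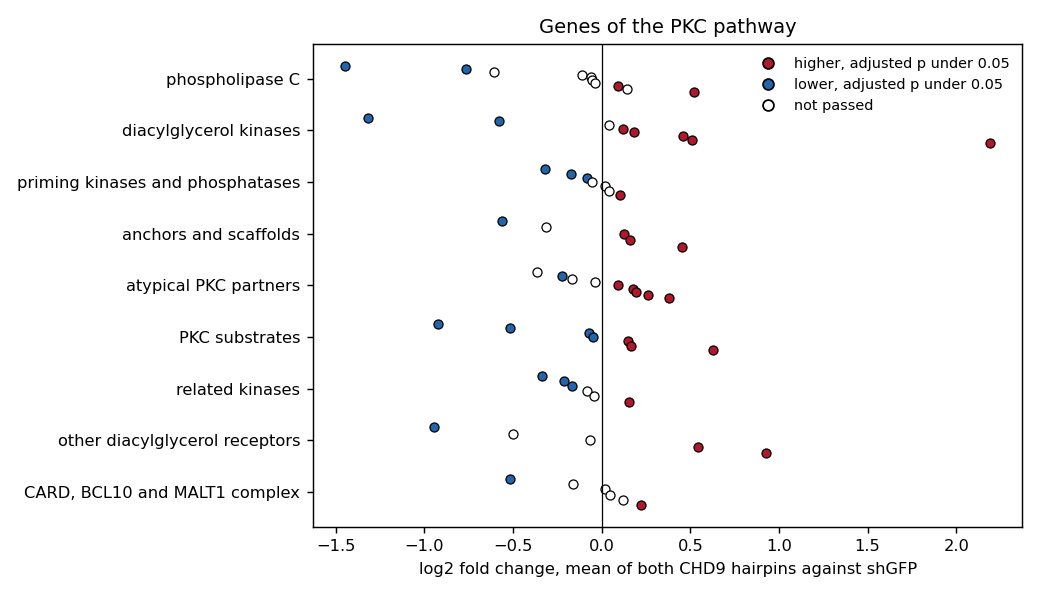
Log2 fold change of both CHD9 hairpins, averaged, over shGFP (x axis) for the 63 tested genes of the 9 pathway lists (rows), 1 point per gene. Filled points passed an adjusted p under 0.05, and of these 23 lie above 0 and 18 below.

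Among 6 kinases related to PKC, 1 rose, 3 fell and 2 did not pass. PKN2, a kinase with a PKC-like catalytic domain, fell by 0.34 (SE 0.04, adjusted p = 7.9e-10). PRKD3, a kinase that PKC activates, fell by 0.165 (SE 0.06, adjusted p = 0.030), with -0.265 for hairpin 1 (adjusted p = 0.0028) and -0.06 for hairpin 2, where it did not pass (adjusted p = 0.53). On the mean it did not pass by DESeq2 (adjusted p = 0.065) or when any of 6 of the 9 libraries was left out (log2 fold change -0.177 to -0.135), which were shCHD9_1 replicates 1 and 3, shCHD9_2 replicates 1 and 3 and shGFP replicates 2 and 3.

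Diacylglycerol and phorbol esters also bind proteins other than PKC through the same kind of C1 domain. Of 5 tested genes from families that hold such receptors, 2 rose, 1 fell and 2 did not pass. Whether the product of each gene binds diacylglycerol was not tested. The synaptic vesicle priming genes UNC13B and UNC13A moved apart: UNC13B was 137 ± 5.01 CPM with hairpin 1 and 179 ± 3.10 CPM with hairpin 2, against 301 ± 5.95 CPM in shGFP, and UNC13A was 127 ± 3.98 CPM with hairpin 1 and 95.5 ± 1.87 CPM with hairpin 2, against 75.55 ± 1.61 CPM in shGFP (SD, n = 3 each). UNC13B fell by 0.94 (SE 0.02, adjusted p = 9.2e-32) and UNC13A rose by 0.54 (SE 0.03, adjusted p = 8.0e-19). RASGRP2, a guanine nucleotide exchange factor for RAP1, rose by 0.93 (SE 0.08, adjusted p = 1.2e-13).

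The CARD, BCL10 and MALT1 complex, through which PKC reaches NF-kB, had 1 of 6 genes that rose and 1 that fell, and 4 did not pass. CARD10, a member used outside blood cells, rose by 0.22 (SE 0.04, adjusted p = 2.3e-05). CARD9, at 1.19 to 2.285 CPM on group average, fell by 0.52 (SE 0.20, adjusted p = 0.027). It was at -0.93 with hairpin 1 (adjusted p = 0.0013) and at -0.11 with hairpin 2, where it did not pass (adjusted p = 0.74). The call on the mean was lost by DESeq2 (adjusted p = 0.057), without shCHD9_2 replicate 1 (log2 fold change -0.435, adjusted p = 0.069) and without shGFP replicate 2 (log2 fold change -0.33, adjusted p = 0.27). BCL10, at -0.16, did not pass (adjusted p = 0.072), but did without shGFP replicate 1 (log2 fold change -0.22, adjusted p = 0.026), while leaving out shGFP replicate 2 gave -0.075 (adjusted p = 0.52).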

How the data were processed

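The authors deposited counts, whole numbers of reads per Ensembl gene, in 1 table of 9 libraries with no normalisation and no pooling of replicates. Per the labels' protocols, polyA RNA went into a directional library kit. The submitters' processing notes name Trim Galore, STAR, DESeq2 and hg38, while tool versions, the program that counted reads, its use of strand and the gene annotation were not given in the sources used here. Samples were grouped by title. Identifiers were matched, without version, to a table of gene names and to GENCODE 29 for coordinates and exon lengths.

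Low-count genes were removed with filterByExpr (minimum count 10) in edgeR 4.0.16 under R 4.3.3, and CPM use TMM-scaled totals. The quasi-likelihood fit used all 9 libraries and 3 group means, with Benjamini-Hochberg adjustment over 16855 genes and a threshold of 0.05. It was also run on simulated data with 200 changed genes. On the mean of both hairpins 7675 genes were called here, so that run does not cover differences as widespread as these. Alternatives were DESeq2 1.42.0 (size factors and Wald test), voom in limma 3.58.1, 2 other filters, an adjusted p under 0.01, the compared groups alone, a replicate block, the longest transcript as length, and leaving out each library.

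The PKC genes, the lists, and the tests were chosen with earlier results of these data known. Genes named are the 8 isoforms, CHD9, up to 3 genes of each list with the smallest p on the mean of both hairpins, and the 5 genes most like PRKCA and PRKCH; DGKB, DGKE, PPP1R14A, and genes overlapping or neighbouring a member were added to describe a list or locus; some genes the rule names are not reported here. Libraries of 1 group differed by more than counting noise (chi-square per degree of freedom 1.72 to 2.83), so none was merged as a library deposited again.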

Additional observations from a re-analysis of the deposited data

Results flagged for a closer look

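Of 37 genes named here that are no members of the isoform list, 20 differed between the hairpins themselves (hairpin 1 minus hairpin 2 on the log2 scale, quasi-likelihood test of edgeR, p adjusted over all genes and under 0.05, n = 3 libraries per hairpin). Of all tested genes, 29.2% were called in this comparison. Most of the 37 had been picked by their p on the mean of both hairpins in these same libraries, so nothing is read from the count. The difference was -0.28 for CHD9, -0.32 for PLCB1, -0.38 for UNC13B, -0.22 for PKN2, -0.16 for LLGL1 and -0.27 for HELZ. It was 0.30 for PLCD3, 0.23 for RACK1, 0.14 for WWC1, 0.25 for PARD6A and 0.41 for UNC13A. Each of these kept the call when any single library was left out.

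The difference was 0.56 for ADD3, which fell further with hairpin 2 than with hairpin 1, and 2.05 for DGKG, at 2.51 CPM with hairpin 1 and 0.623 CPM with hairpin 2. Both also kept the call without any single library. The difference was -0.24 for DGKA, -0.16 for PHLPP2, -0.20 for PRKD3, 0.40 for CACNG4 and 0.15 for TMEM30B, and each of these calls was lost by DESeq2 (adjusted p of 0.052 to 0.077) and in several fits that left out a library. Those libraries were shCHD9_1 replicates 1 and 2 and shCHD9_2 replicates 1, 2 and 3 for DGKA (edgeR adjusted p up to 0.22), and shCHD9_1 replicates 1 and 3 and shCHD9_2 replicate 3 for PHLPP2 (up to 0.12). They were shCHD9_1 replicates 1 and 3 and shCHD9_2 replicate 2 for PRKD3 (up to 0.32), shCHD9_1 replicate 1 and shCHD9_2 replicates 1 and 2 for CACNG4 (up to 0.12), and shCHD9_1 replicates 1 and 3 and shCHD9_2 replicates 2 and 3 for TMEM30B (up to 0.33). The difference of PLCD4 was -1.91 and that of CARD9 -0.82, and both calls were lost without shCHD9_2 replicate 2, where edgeR gave -1.25 for PLCD4 (adjusted p = 0.21) and -0.69 for CARD9 (adjusted p = 0.065).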

How the results depend on the processing

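The log2 differences of the 6 tested PKC isoforms moved by less than the replicate SD under each alternative run, and PRKCA, on the mean of both hairpins, ranged from 1.496 to 1.542. Signs near 0 turned when a library was left out: PRKCE (-0.04 to 0.09), PRKCI (-0.02 to 0.02) and PRKCZ (-0.01 to 0.04) on that mean. Pathway genes called numbered 30 to 41 on the mean of both hairpins, 37 to 47 for hairpin 1, 26 to 32 for hairpin 2 and 23 to 31 between the hairpins, and all called genes 6084 to 7669 on the mean, each within 1.5 times the value reported. The log2 fold change of CHD9 with hairpin 2 ranged from -0.292 to -0.201 over the 9 fits that each left out a library. The compared groups alone gave no separate fit for the mean of both hairpins, which uses all 3 groups.

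With the longest annotated transcript as length, shares of the summed PKC level moved. With hairpin 1 they became 87.0% for PRKCD, 5.79% for PRKCZ, 4.91% for PRKCI, 0.430% for PRKCE and 0.208% for PRKCH. With hairpin 2 they became 85.6% for PRKCD, 6.11% for PRKCI, 6.09% for PRKCZ, 0.3985% for PRKCE and 0.247% for PRKCH. In shGFP they became 85.3% for PRKCD, 6.85% for PRKCZ, 6.40% for PRKCI, 0.469% for PRKCE and 0.3145% for PRKCH.

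Replicate numbers are shared between groups, but deviations of same-numbered libraries correlated by -0.07 to 0.0933, and in 6 of 18 comparisons was the highest correlation with the own number, so the numbers were not taken as pairs. A replicate block gave 7669 called genes on the mean of both hairpins and a log2 fold change of 1.52 for PRKCA.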

Other observations

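Within 500000 bases of PRKCA on chromosome 17, 4 tested genes with a symbol lie beside it. CACNG4 (66964910 to 67033398), which encodes a regulatory subunit of AMPA receptors, was 5.68 ± 0.493 CPM with hairpin 1 and 4.32 ± 0.437 CPM with hairpin 2, against 2.64 ± 0.269 CPM in shGFP (SD, n = 3 each). It rose by 0.91 on the log2 scale on the mean of both hairpins (SE 0.14, edgeR adjusted p = 4.3e-07). On the other side, APOH (66212033 to 66256525), which encodes a plasma protein made by liver, was 2.21 ± 0.331 CPM with hairpin 1 and 2.61 ± 0.349 CPM with hairpin 2, against 4.78 ± 0.165 CPM in shGFP, and fell by 0.99 (SE 0.14, edgeR adjusted p = 9.7e-08). CEP112, at -0.17 on that scale, did not pass (edgeR adjusted p = 0.55). HELZ, a helicase gene, was 41.6 ± 1.70 CPM with hairpin 1 and 50.3 ± 2.29 CPM with hairpin 2, against 45.8 ± 0.621 CPM in shGFP (SD, n = 3 each). It fell with hairpin 1 (log2 fold change -0.14, edgeR adjusted p = 0.019) and rose with hairpin 2 (0.13, edgeR adjusted p = 0.024). The HELZ call for hairpin 1 was lost without shCHD9_1 replicate 1 (-0.11, edgeR adjusted p = 0.095), shCHD9_1 replicate 3 (-0.13, adjusted p = 0.059) or shGFP replicate 1 (-0.13, adjusted p = 0.058). That for hairpin 2 was lost without shCHD9_2 replicate 2 (0.13, edgeR adjusted p = 0.071), shCHD9_2 replicate 3 (0.11, adjusted p = 0.11), shGFP replicate 2 (0.12, adjusted p = 0.074) or shGFP replicate 3 (0.13, adjusted p = 0.059). These genes were looked up because PRKCA had been singled out, and 45.5% of all tested genes passed on the mean of both hairpins.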
